A study of Homo sapiens with 12 samples.

Results

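The comparison described here is the interaction of BMP2 and DM in SK-OV-3 cells, that is, how far the response to BMP2 differed when DM was also in the medium. It was computed for each gene as the BMP2 effect with DM (BMP2+DM minus DM) minus the BMP2 effect without DM (BMP2 minus PBS), on the log2 scale of the array signal, over all 12 arrays. Genes entered it by the rule that their probe set carried a single gene symbol. This gave 19775 genes, of which 12674 had a signal above the median of all probe sets (69.8) and were tested. Of these, 15 (0.118% of the genes tested) passed the test for the interaction, 13 in the positive direction (0.103%) and 2 in the negative direction (0.0158%).

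SK-OV-3, a long-established cell line from a human ovarian cancer, was grown in 12 dishes that the labels give as biological replicates, each with its own expression array. In 3 dishes the medium held PBS, the saline control, in 3 recombinant BMP2 (100 ng/ml), in 3 DM (5 µM) and in 3 both, all for 24 h. DM is named in the labels by these letters alone. All dishes were of a single line, so the p-values measure the spread between dishes of SK-OV-3 and of no other cells.

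BMP2 is a growth factor of the TGF-beta superfamily that cells secrete. It binds paired type I and type II receptor kinases at the cell surface, the type I receptor phosphorylates SMAD1, SMAD5 and SMAD9, and these enter the nucleus with SMAD4. The ID genes, which encode inhibitors of basic helix-loop-helix transcription factors, and the inhibitory SMAD6 and SMAD7 are its textbook direct targets. CXCR4 is the receptor of the chemokine CXCL12, STC1 is the secreted glycoprotein stanniocalcin 1, NDRG1 is a cytoplasmic protein known for its rise in hypoxia, IGFBP3 binds insulin-like growth factors outside the cell, and CD24 is a small glycoprotein anchored to the cell surface. Several of these genes are known targets of the hypoxia-inducible factors (HIF), whose binding sites share the core letters ACGTG or GCGTG.

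Every array had been scaled to the same trimmed mean (495.8 to 496.1), and median signals ranged from 86.7 to 111.7. BMP2 replicate 1 stood apart from the other arrays: it had the highest median signal, the lowest mean correlation with the arrays of its own group (0.934), and the lowest score on the second principal component (-44.9, against -14 to 25.9 for the other 11). BMP2 replicate 2 had the smallest rise in BMP targets, with an ID3 signal of 3240.2 against 9909 and 9251 in the other BMP2 arrays. The line's own markers were bright, with geometric mean signals of 11248 for ERBB2, 5274 for PAX8, 6705 for KRT8, 15410.3 for KRT18 and 3794 for EPCAM. None of these 5 passed the interaction test by limma, although EPCAM (0.52), PAX8 (0.34) and ERBB2 (0.29) had positive estimates at an unadjusted p under 0.05 (0.0130, 0.0432 and 0.0421). Of the markers of other cells, 4 of 6 mesothelial, 2 of 9 leukocyte, 2 of 10 fibroblast and 1 of 8 endothelial genes were above the filter. Of these 0 passed the interaction test, also at an unadjusted limma p under 0.05. Over all genes tested the shares were 0.118% and 8.7%, so a count of 0 among so few genes says little of other cells. In RNA from whole dishes, less RNA per cell and fewer cells with the RNA cannot be told apart.

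The promoter sequences of 4 of the 15 genes are shown here because they carry, or lack, the HIF core letters that the results on hypoxia-induced genes below refer to. They are RefSeq sequences of GRCh38.p14 (250 bases before to 50 after the start site, 5′ to 3′ on the gene's own strand), for CXCR4 at chr2:136118100-136118399, BNIP3 at chr10:131981874-131982173, IGFBP3 at chr7:45921223-45921522 and CD24 at chr6:106975578-106975877, all on the minus strand. Capitals mark the core letters ACGTG or GCGTG and the GC-rich SMAD element GGCGCC on either strand, so that a match on the opposite strand appears as its reverse complement.
CXCR4: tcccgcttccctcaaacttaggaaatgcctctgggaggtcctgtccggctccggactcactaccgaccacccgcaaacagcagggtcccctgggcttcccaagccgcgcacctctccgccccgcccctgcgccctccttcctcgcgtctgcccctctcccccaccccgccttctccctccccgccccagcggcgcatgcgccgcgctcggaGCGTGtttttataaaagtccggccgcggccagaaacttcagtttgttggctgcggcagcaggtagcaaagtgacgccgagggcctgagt
BNIP3: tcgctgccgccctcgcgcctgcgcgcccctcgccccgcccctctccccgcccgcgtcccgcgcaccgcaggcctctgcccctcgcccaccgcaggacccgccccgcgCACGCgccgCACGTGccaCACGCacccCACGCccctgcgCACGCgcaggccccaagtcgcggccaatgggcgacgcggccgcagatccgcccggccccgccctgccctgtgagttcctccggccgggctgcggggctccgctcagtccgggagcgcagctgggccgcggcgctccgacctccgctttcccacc
IGFBP3: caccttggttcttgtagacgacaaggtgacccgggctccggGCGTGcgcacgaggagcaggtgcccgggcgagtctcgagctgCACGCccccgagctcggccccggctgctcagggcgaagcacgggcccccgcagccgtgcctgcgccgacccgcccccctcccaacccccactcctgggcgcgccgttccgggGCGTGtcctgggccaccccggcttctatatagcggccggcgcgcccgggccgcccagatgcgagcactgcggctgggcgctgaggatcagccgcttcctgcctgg
CD24: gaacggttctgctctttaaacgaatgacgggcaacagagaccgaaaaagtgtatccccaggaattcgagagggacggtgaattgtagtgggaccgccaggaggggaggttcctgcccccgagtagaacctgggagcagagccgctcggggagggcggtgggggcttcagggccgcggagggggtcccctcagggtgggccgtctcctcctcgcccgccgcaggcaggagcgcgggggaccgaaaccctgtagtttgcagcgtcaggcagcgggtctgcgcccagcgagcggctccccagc
CXCR4 held 1 GCGTG, 39 bases before the start site. BNIP3, which encodes a mitochondrial protein of the BCL2 family induced by hypoxia, held 2 overlapping ACGTG, 1 on each strand, and 4 GCGTG. IGFBP3 held 3 GCGTG. The CD24 sequence held none of the 3 motifs, but it lies inside the gene (chr6:106969831-106976855), around an internal start site. It says nothing of the promoter at the gene's outer 5′ end, which was not searched. Of all 35116 promoters of this length, 48.4% held ACGTG or GCGTG (21.4% and 36.5%) and 19.2% held GGCGCC. Among the 11 of 15 interaction genes found in the promoter table, 8 held ACGTG or GCGTG in the first listed promoter of the gene. A match is a run of letters and says nothing of binding in these cells.

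Without DM, BMP2 changed 80 genes (0.631% of those tested), 41 higher (0.323%) and 39 lower (0.308%). With DM in the medium it changed 6 (0.0473%), 5 higher (0.0395%) and 1 lower (0.00789%). DM alone changed 453 genes (3.57%), 236 higher (1.86%) and 217 lower (1.71%). A difference between such counts is no test, which is what the interaction gives gene by gene. At an unadjusted p under 0.05, 1103 genes (8.7%) passed for the interaction, 570 higher (4.5%) and 533 lower (4.21%), and the median interaction over all genes was 0.01. Its standard error had a median of 0.28 over the genes tested.

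The 15 genes were sorted by the sizes of their 2 BMP2 effects. Where the effect with DM was under 0.5 of the size of the effect without it, the effect is called removed, and in the opposite case enlarged. Where both were at least 0.5 of the larger, it is called kept if the signs were equal and turned if they differed. By these estimates 8 effects were removed (CXCR4, STC1, NDRG1, BNIP3, PDZK1IP1, PHLDA2, RNASET2 and CD24), 5 turned (DECR2, IGFBP3, CCL20, ARF5 and SF3B1), 1 was kept (ID4) and 1 enlarged (ID1). The names describe estimates, are no test of their own and depend on the boundary of 0.5. With a boundary of 0.3, 7 of the 15 were removed, 6 turned and 2 kept. With 0.7, 10 were removed, 2 turned and 3 enlarged. CD24 and CCL20 both had estimates of opposite sign, and their ratios (-0.486 and -0.513, with DM over without) lay either side of the boundary. ID4 is named kept although its effect was larger with DM. ID1 and ID4 (ratios 2.11 and 1.72) were both kept at 0.3 and both enlarged at 0.7. The genes nearest the threshold on its inner side were SF3B1 (limma adjusted p = 0.0486) and PHLDA2 (0.0409), and 6 genes lay between 0.05 and 0.06 (TGFBI, FOXQ1, DDIT4, SLCO4A1, APLP2 and SNAI2). BMP2 lowered 10 of the 15 in the absence of DM and raised 3, while ARF5 and SF3B1 did not pass that test.

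**Figure D1:**
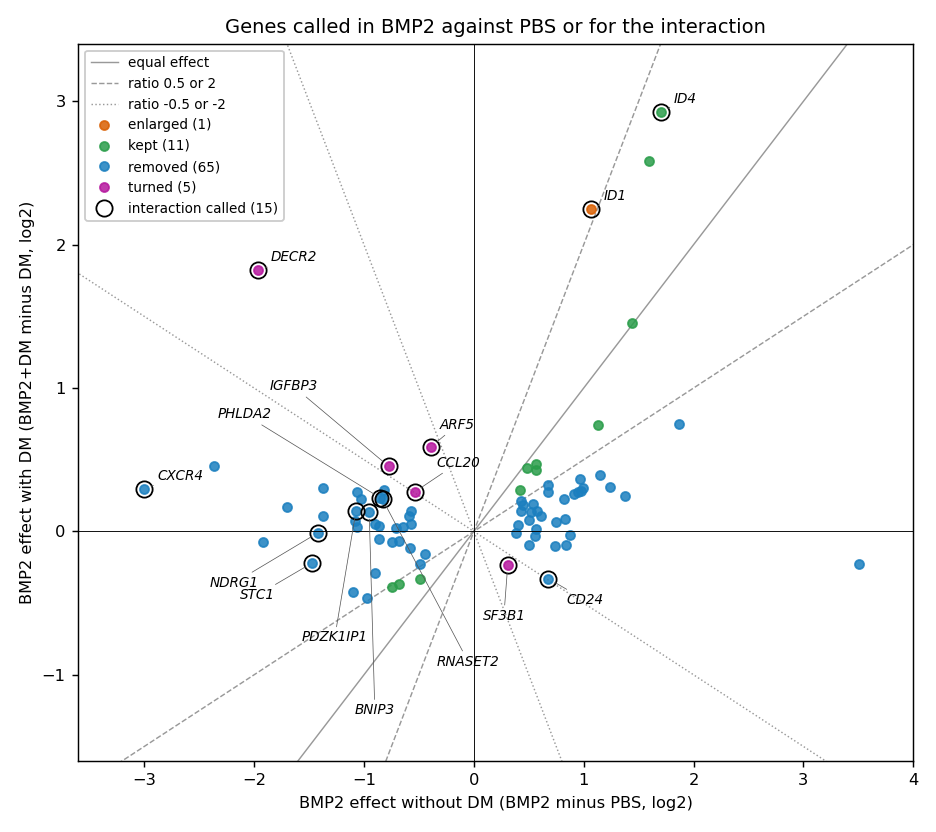
Each point is a gene called in BMP2 against PBS or for the interaction, with the BMP2 effect without DM on the x axis and with DM on the y axis (both log2, limma estimates from 3 arrays per group). Colours give the class, rings the 15 interaction genes, and lines the class boundaries and equal effects. Most points lie near the horizontal zero line. All genes with a positive interaction estimate lie above the line of equal effects, among them ID1 and ID4, which BMP2 raised in both settings.

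The 80 genes were chosen by the effect without DM, so the effect with DM, which comes from 6 other arrays, is the measure that the choice did not fix. Over the 41 genes that BMP2 raised, the median effect was 0.74 without DM and 0.22 with it, and 33 had the same sign with DM and 8 the opposite one. Over the 39 that BMP2 lowered, the medians were -0.87 and 0.05, and 15 had the same sign and 24 the opposite one. The first value of each pair is favoured by the choice of genes on it. Of the 80, 65 (81.2%) were sorted as removed, 11 as kept, 1 as enlarged and 3 as turned, and with the class boundary at 0.3 or 0.7 the removed share was 60% or 90%. Only 3 of the 41 raised and 10 of the 39 lowered genes passed the interaction test by limma (0.118% of all genes tested). That test shares the arrays that chose the genes. For the genes that did not pass, the class describes estimates and shows no difference between the 2 BMP2 effects. The 11 kept genes were ID2, ID3, ID4, UCA1, HEY1, PMEPA1, SPDL1 and NOSIP, which were higher with BMP2, and CALB1, SIGLEC15 and ATP1B1, which were lower.

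Which array was left out moved the number of interaction genes. It was 0 without PBS replicate 3, where limma still gave 931 genes an unadjusted p under 0.05, and 42 without BMP2 replicate 2. Without PBS replicates 1 and 2 it was 4 and 7, without BMP2 replicates 1 and 3 it was 9 and 12, without DM replicates 1, 2 and 3 it was 6, 8 and 16, and without BMP2+DM replicates 1, 2 and 3 it was 9, 5 and 5. The number changed by BMP2 without DM was 40 without BMP2 replicate 1, 39 without BMP2 replicate 3, 40 and 46 without PBS replicates 1 and 2, and 36 without PBS replicate 3. The number changed by BMP2 in the presence of DM was 14 without BMP2 replicate 2, 3 without DM replicate 2 and 21 without BMP2+DM replicate 1.

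CXCR4 had signals of 876, 828 and 2019.8 with PBS and of 126, 129.8 and 175 with BMP2. With DM its signals were 223, 345 and 231, and with both they were 495, 189 and 350.1. The BMP2 arrays were the 3 lowest of the 12, all PBS arrays were above all others, and the DM and BMP2+DM arrays overlapped. CXCR4 fell with BMP2 without DM (-3.00 ± 0.37 on the log2 scale, SE, n = 3 arrays per group), while with DM the estimate was 0.30 (95% interval -0.48 to 1.07). The interaction was 3.30 ± 0.52 (limma, adjusted p = 0.0205). DM alone also lowered CXCR4 (-2.12, limma adjusted p = 0.00258), in a comparison that shares the PBS arrays, so that with DM the BMP2 effect was measured from a lower level. All 3 of its probe sets above the filter gave a positive interaction (2.82 to 4.66). Leaving out 1 array moved the estimate between 2.88 and 3.68, and the limma adjusted p went above 0.05 without PBS replicate 3 (0.0647), DM replicate 1 (0.0589) or BMP2+DM replicate 3 (0.0525).

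STC1 had signals of 2006, 2172 and 2177 with PBS, 698, 954 and 667 with BMP2, 2752, 3215 and 3204 with DM, and 2554, 2724 and 2577 with both. The BMP2 arrays were the 3 lowest and the DM arrays the 3 highest. BMP2 lowered it without DM (-1.47 ± 0.13), and with DM the estimate was -0.22 (-0.49 to 0.05), which gave an interaction of 1.25 ± 0.18 (adjusted p = 0.0110). Here DM alone went the other way from CXCR4, raising the gene by 0.53 (limma adjusted p = 0.0298). The 3 probe sets gave interactions of 1.25 to 1.98, and the call was lost without PBS replicate 3 alone of the 12 arrays (1.23, adjusted p = 0.0647).

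NDRG1 had signals of 7040.0, 6260.0 and 8568 with PBS, 1870.3, 3572 and 2969 with BMP2, 5993, 6839 and 7895 with DM, and 6932, 6684 and 6859 with both. The 3 BMP2 arrays were the lowest, and the BMP2+DM arrays lay inside the range of the DM arrays. BMP2 lowered it without DM (-1.42 ± 0.17), against an estimate of -0.01 (-0.38 to 0.36) with DM, an interaction of 1.41 ± 0.25 (adjusted p = 0.0349). DM alone gave an estimate of -0.07 (limma adjusted p = 0.898). The call held on the omission of PBS replicate 2, of DM replicate 3 or of each BMP2 array, with estimates of 1.14 to 1.61 over all 12 omissions, and was lost without the other 7 arrays (adjusted p from 0.0767 to 0.124).

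IGFBP3 had signals of 18057, 14134 and 21893 with PBS, 8304, 11821 and 11334 with BMP2, 7485, 8369 and 7389 with DM, and 10456, 10915 and 10438 with both. The PBS arrays were the 3 highest, and the BMP2+DM arrays were all above the DM arrays. BMP2 lowered it without DM (-0.78 ± 0.14), and with DM the estimate had the opposite sign, 0.45 (0.16 to 0.75), though that effect did not pass on its own (limma adjusted p = 0.304). The interaction was 1.23 ± 0.20 (adjusted p = 0.0205), and both probe sets were positive (1.23 and 1.48). DM alone lowered IGFBP3 (-1.20, limma adjusted p = 4.63e-05). The call was lost without PBS replicate 1 (adjusted p = 0.0735), PBS replicate 3 (0.0647), DM replicate 1 (0.0595), BMP2+DM replicate 2 (0.0760) or BMP2+DM replicate 3 (0.0525), with estimates of 1.07 to 1.39 over the 12 omissions.

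CD24 ran the opposite way, with signals of 4473, 4235 and 4192 with PBS, 7268, 6057 and 7394 with BMP2, 3385, 3361 and 3249 with DM, and 2564, 2563 and 2833 with both. The 4 groups did not overlap: the BMP2 arrays were the highest and the BMP2+DM arrays the lowest. BMP2 raised it by 0.68 ± 0.09 without DM, against an estimate of -0.33 (-0.53 to -0.13) with DM that did not pass on its own (limma adjusted p = 0.272). The interaction was -1.01 ± 0.13 (adjusted p = 0.00874), the smallest adjusted p of the 15. All 6 probe sets above the filter were negative (-1.01 to -0.30). The call was lost without PBS replicate 3 alone of the 12 arrays (-0.99, adjusted p = 0.0562).

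**Figure D2:**
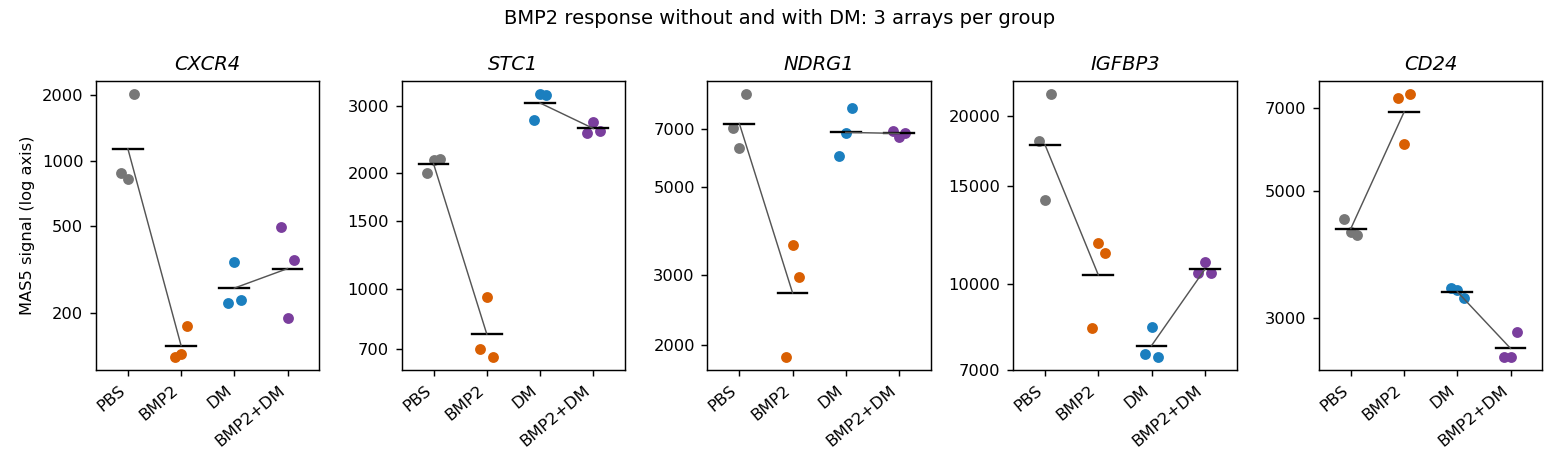
MAS5 signal (log axis) of CXCR4, STC1, NDRG1, IGFBP3 and CD24 on each of the 12 arrays by group; each point is an array, each bar the geometric mean of 3, and lines join the groups without and with BMP2. The BMP2 arrays sit below the PBS arrays in the first 4 genes and above them in CD24, and the slope between DM and BMP2+DM is small or has the opposite sign.

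The other genes with a removed or turned effect included DECR2, a peroxisomal enzyme of unsaturated fatty acid breakdown, which had the largest estimate of the 15. Its signals were 220.4, 439 and 354 with PBS, 111, 81.4 and 64.1 with BMP2, 83.4, 96.7 and 92 with DM, and 366, 350.1 and 255 with both. The PBS and BMP2+DM arrays were all above the BMP2 and DM arrays. Of these, BMP2 replicate 3 (64.1) was below the filter signal of 69.8 and others were close to it. BMP2 lowered DECR2 without DM (-1.96 ± 0.39), the estimate with DM was 1.82 (0.999 to 2.64), and the interaction was 3.78 ± 0.55 (adjusted p = 0.0110). The BMP2 effect in the presence of DM did not pass by itself (limma adjusted p = 0.142). It rests on 1 probe set, and the call was lost without PBS replicate 3 (3.72, adjusted p = 0.0647).

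PDZK1IP1, a small membrane protein that binds the scaffold PDZK1, had signals of 2016, 2197 and 2150.4 with PBS, 1042, 1030.1 and 952 with BMP2, 1941, 1848 and 1232 with DM, and 1695, 2009 and 1734 with both, so that the BMP2 arrays were the 3 lowest. Its interaction was 1.21 ± 0.21 (adjusted p = 0.0349), and it was called on the omission of each DM array and of BMP2 replicate 2, and not in the other 8 omissions (adjusted p from 0.0519 to 0.124). BNIP3 had signals of 4829, 3787 and 4859.6 with PBS, 1891, 2939.7 and 2206 with BMP2, 3023, 3437 and 3629 with DM, and 3897, 3614 and 3553 with both, and again the 3 BMP2 arrays were the lowest. BMP2 lowered BNIP3 without DM (-0.95 ± 0.14), and the estimate with DM was 0.14 (-0.16 to 0.43). Its interaction was 1.09 ± 0.20 (adjusted p = 0.0368), called without PBS replicate 2, BMP2 replicate 2 or DM replicate 3 and lost in the other 9 omissions (adjusted p from 0.0739 to 0.132).

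PHLDA2, an imprinted gene with a pleckstrin homology-like domain, had signals of 2586, 2065 and 2199 with PBS, 1196, 1575 and 1056 with BMP2, 3597, 3876 and 3600.0 with DM, and 4612, 3651 and 4859 with both. The BMP2 arrays were the lowest, and DM alone raised the gene by 0.70 (limma adjusted p = 0.00931). Its interaction was 1.09 ± 0.20 (adjusted p = 0.0409), called on the omission of BMP2 replicate 2 or BMP2+DM replicate 2 (adjusted p 0.0583 to 0.133 in the other 10 omissions), and a dimmer probe set gave -0.03. RNASET2, a secreted and lysosomal ribonuclease, had signals of 8900.0, 9004 and 9139 with PBS, 4396, 5163 and 5735 with BMP2, 7982, 7595 and 5269.6 with DM, and 7711, 8733 and 7545 with both. Its interaction was 1.05 ± 0.19 (adjusted p = 0.0349), and 4 of its 5 probe sets above the filter were positive while a dim one gave -1.69. It was lost on the omission of each PBS array, of BMP2 replicate 1 and of each BMP2+DM array (adjusted p 0.0608 to 0.124).

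CCL20, the chemokine that binds CCR6, had signals of 6811, 6429 and 7047 with PBS, 4417, 4387 and 5209 with BMP2, 6500.0, 7703 and 6240.4 with DM, and 7954, 9112 and 7650.2 with both. Its BMP2 arrays were the 3 lowest, while the BMP2+DM arrays overlapped the DM arrays. BMP2 lowered CCL20 without DM (-0.54 ± 0.10), and the estimate with DM, 0.28, did not pass on its own (limma adjusted p = 0.427). Its interaction was 0.81 ± 0.14 (adjusted p = 0.0349), called without BMP2 replicate 2, BMP2 replicate 3 or DM replicate 2 and lost in the other 9 omissions (0.0568 to 0.124). ARF5, a small GTPase of the ADP-ribosylation factor family, had signals of 1721, 1877 and 1974 with PBS, 1323, 1656 and 1297 with BMP2, 1239, 1348 and 1269.9 with DM, and 2058, 2035 and 1730.5 with both, an interaction of 0.98 ± 0.18 (adjusted p = 0.0349). SF3B1, a core subunit of the U2 small nuclear ribonucleoprotein, had signals of 12641, 11624 and 12149 with PBS, 15279, 14892 and 14902 with BMP2, 14918, 13708 and 14582 with DM, and 11986, 12513 and 12131 with both, an interaction of -0.55 ± 0.10 (adjusted p = 0.0486). For these last genes neither BMP2 effect passed on its own, and both calls were lost on the omission of every array but BMP2 replicate 2 (ARF5 0.0525 to 0.124, SF3B1 0.0610 to 0.156). Of the 5 SF3B1 probe sets above the filter, 4 were negative and 1 was slightly positive (0.06). The second brightest gave only -0.13, and the BMP2 effect without DM ranged from -0.40 to 0.31 over the 5.

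ID1 and ID4 were the interaction genes that BMP2 raised both without and with DM, by more on the log2 scale with it. ID1 had signals of 20001, 19408 and 17605 with PBS, 43294, 29713 and 48429.6 with BMP2, 3609, 3579 and 3653 with DM, and 14697, 20073 and 17054 with both. The DM arrays were the 3 lowest and the BMP2 arrays the 3 highest, and the BMP2+DM arrays overlapped the PBS arrays. BMP2 raised ID1 by 1.06 ± 0.14 without DM and by 2.25 ± 0.14 with it (limma adjusted p = 0.00101 and 5.79e-08), an interaction of 1.18 ± 0.20 (adjusted p = 0.0318). ID4 had signals of 3339, 2939.9 and 3298 with PBS, 10607, 7896 and 13324 with BMP2, 244, 257 and 248 with DM, and 1649, 2227 and 1854 with both. Here the BMP2+DM arrays were all below the PBS arrays. BMP2 raised ID4 by 1.70 ± 0.16 without DM and by 2.92 ± 0.16 with it, an interaction of 1.22 ± 0.22 (adjusted p = 0.0349).

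The direction of the ID interactions depends on the scale. As differences of mean signal, BMP2 added 21474 units to ID1 without DM and 13661 with it, an interaction of -7813, and 7417 and 1660.4 units to ID4, an interaction of -5756. On the log2 scale the interaction was positive in both genes. DM alone lowered ID1 (-2.39, limma adjusted p = 1.03e-08) and ID4 (-3.67, limma adjusted p = 1.79e-10), so that the same number of units is a larger ratio there. The other 13 interaction genes had the same sign on both scales. The ID1 call was lost on the omission of each PBS array, of DM replicates 1 and 2 and of BMP2+DM replicates 2 and 3 (adjusted p 0.0583 to 0.101). ID4 was called without BMP2 replicate 2, BMP2 replicate 3 or BMP2+DM replicate 1 and lost in the other 9 omissions (0.0583 to 0.131), and its 4 probe sets above the filter ranged from -0.11 to 1.69.

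ID3 and ID2 showed the same pattern of levels without an interaction that passed. ID3 had signals of 2681, 2362 and 1692 with PBS, 9909, 3240.2 and 9251 with BMP2, 217, 146 and 98.8 with DM, and 732, 1165 and 799 with both. BMP2 raised ID3 by 1.60 ± 0.35 without DM and by 2.59 ± 0.35 with it (limma adjusted p = 0.0416 and 0.00343), with an interaction of 0.99 (95% interval -0.04 to 2.02, adjusted p = 0.591). ID2 had signals of 1043, 1056 and 1087 with PBS, 3408, 1601 and 4361 with BMP2, 325, 235 and 209 with DM, and 719, 755 and 603 with both. The interaction of ID2 was 0.02 (-0.77 to 0.81), and its second probe set gave -1.42. Both were negative as differences of mean signal, -4477 for ID3 and -1625 for ID2.

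**Figure D3:**
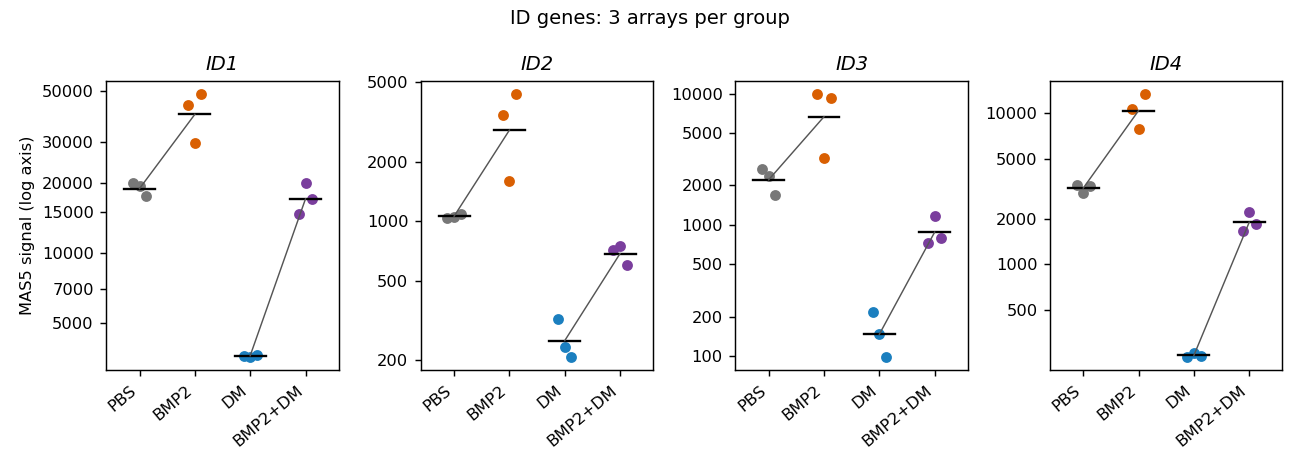
MAS5 signal (log axis) of ID1, ID2, ID3 and ID4 on the 12 arrays by group, with points for arrays, bars for the geometric mean of 3 and lines joining the groups without and with BMP2. In all 4 genes the DM arrays are the lowest and the BMP2 arrays the highest, and in ID1, ID3 and ID4 the line is steeper with DM.

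The inhibitory SMAD6 and SMAD7 and the receptor-activated SMAD9 had negative estimates that did not pass. SMAD6, which blocks BMP receptor signalling, had signals of 522, 551 and 622 with PBS, 1526, 859 and 1474 with BMP2, 377, 373 and 398 with DM, and 471, 517 and 522 with both. BMP2 raised SMAD6 by 1.14 ± 0.20 without DM (limma adjusted p = 0.0104), the estimate with DM was 0.39 (-0.03 to 0.82), and the interaction was -0.75 ± 0.29 (adjusted p = 0.466). A dimmer SMAD6 probe set above the filter gave the opposite sign (0.84). SMAD9, a signal-carrying SMAD of the BMP branch, had signals of 853, 689.8 and 716 with PBS, 1961, 1386 and 2055 with BMP2, 226, 374 and 289 with DM, and 329.6, 346 and 411 with both, and an interaction of -0.93 ± 0.30 (adjusted p = 0.350), which was 0.0906 with its probe sets averaged. That average took in a second SMAD9 probe set, below the filter, that gave 1.11. SMAD7, which inhibits both TGF-beta and BMP receptors, had an interaction of -0.61 ± 0.25 (adjusted p = 0.491). None of these 3 SMAD interactions passed by limma, although each had an unadjusted p under 0.05 (0.0178, 0.00591 and 0.0239). Over the 14 measured BMP-SMAD targets, 2 passed in the positive direction (ID1 and ID4), against 0.103% of all genes tested. Of the 14, 4 estimates were positive, and the median was -0.13. It was -0.0788 without BMP2 replicate 1, -0.276 without BMP2 replicate 2, -0.192 without BMP2+DM replicate 3, and positive (0.188) with probe sets averaged per gene. BMP2 raised 7 of the 14 without DM and 3 with it (0.323% and 0.0395% of all genes tested), with median effects of 0.89 and 0.31.

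Among the gene lists, the hypoxia-induced genes had the largest number of interaction estimates past an unadjusted p of 0.05 in 1 direction. Of 21 measured members, 2 passed (NDRG1 and BNIP3, both positive), 19 were positive, 15 had a positive estimate at an unadjusted p under 0.05 and 0 a negative one. Over all genes 6503 of 12674 were positive, 0.118% passed, and 4.5% were positive and 4.21% negative at that p. The median interaction was 0.61 over the list against 0.01 over all genes, and the list's median BMP2 effect was -0.47 without DM and 0.05 with it. BMP2 lowered 8 members without DM (0.308% of all genes tested), namely NDRG1, BNIP3, ADM, DDIT4, INSIG2, VEGFA, ZNF395 and FAM162A. With DM it changed 0 by limma, against 0.0473% of all genes tested. The list was written with earlier results of these data in view, so that its direction is a description. Of the 17 members found in the promoter table, 14 held a HIF core, against 48.4% of all promoters, and 10 held the SMAD element, against 19.2%. The list holds genes known to be induced by hypoxia, so its share of HIF cores is favoured by that choice and is no result of these data. The first listed promoter of each member was set against all promoters, and the GC content of these promoters was not compared.

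ADM, the vasodilator peptide adrenomedullin, had signals of 1643, 1242 and 2398 with PBS, 428, 672 and 495 with BMP2, 378, 596 and 483 with DM, and 671, 645 and 358 with both. As for CXCR4, only the PBS arrays were high, and DM alone lowered it (-1.83, limma adjusted p = 0.000627). Its interaction was 1.87 ± 0.38 (adjusted p = 0.0673). DDIT4, an inhibitor of mTORC1 signalling, had signals of 5883, 4636 and 6792 with PBS, 1864, 2944 and 3686 with BMP2, 7178, 6523 and 5735 with DM, and 8576, 7814 and 7121 with both. As for NDRG1, the BMP2 arrays alone were low, and its interaction of 1.34 ± 0.26 missed the threshold narrowly (adjusted p = 0.0537). VEGFA, the main angiogenic ligand, had signals of 5293, 4429 and 5704 with PBS, 2687, 3176 and 3814 with BMP2, 5252, 5688 and 5731 with DM, and 6358, 4603 and 5060.3 with both, and an interaction of 0.61 ± 0.19 (adjusted p = 0.336). These 3 were named after their values were seen.

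BMP2 replicate 1, the array that stood apart, was also the lowest in these genes. Its list score, the mean log2 signal of the members relative to the PBS mean, was -0.93, against -0.41 and -0.48 in the other BMP2 arrays. The PBS arrays had scores of 0.04, -0.17 and 0.13, the DM arrays of -0.43, -0.39 and -0.43, and the BMP2+DM arrays of -0.25, -0.32 and -0.40. The score was thus also below the PBS arrays with DM alone, and the BMP2+DM arrays were within or above the DM range. Without BMP2 replicate 1 the list's median interaction was 0.51, with 13 positive and 1 negative estimate at an unadjusted p under 0.05 and 1 member called. Without BMP2 replicate 2 it was 0.64, with 6 called. No member was called without PBS replicate 1 or 3, DM replicate 1 or 2, or BMP2+DM replicate 1 or 2, and 1 was called without BMP2+DM replicate 3. The called number was also 0 with median centring, with probe sets averaged per gene, with every probe set tested and without an intensity trend. The list's median stayed between 0.51 and 0.69 over the 12 omissions.

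Glycolysis genes, many of which are also HIF targets, had smaller estimates of the same sign. Of 20 measured members, 0 passed by limma, against 0.118% of all genes tested. Of the 20, 19 were positive, and 13 were positive and 0 negative at an unadjusted p under 0.05 (4.5% and 4.21% over all genes). The median interaction was 0.42, from a median BMP2 effect of -0.25 without DM and 0.21 with it. HK2, the inducible hexokinase of the first step, had signals of 742, 707 and 828 with PBS, 182, 428 and 319 with BMP2, 479, 449 and 300.1 with DM, and 494, 573 and 427 with both. It was the only member that BMP2 lowered (-1.37 ± 0.27), and its interaction was 1.68 ± 0.39 (adjusted p = 0.139). The later steps differed among themselves, from 0.01 for LDHA, 0.04 for GAPDH and 0.12 for ENO1 to 0.38 for TPI1, 0.58 for PKM and 0.88 for ENO2, of which none passed by limma. The count of 13 was 8 without PBS replicate 3 and 8 without an intensity trend. With probe sets averaged per gene, 8 were positive and 1 negative at that p, 15 estimates were positive, and the median was 0.28. Without BMP2 replicate 2, 2 members were called.

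**Figure D4:**
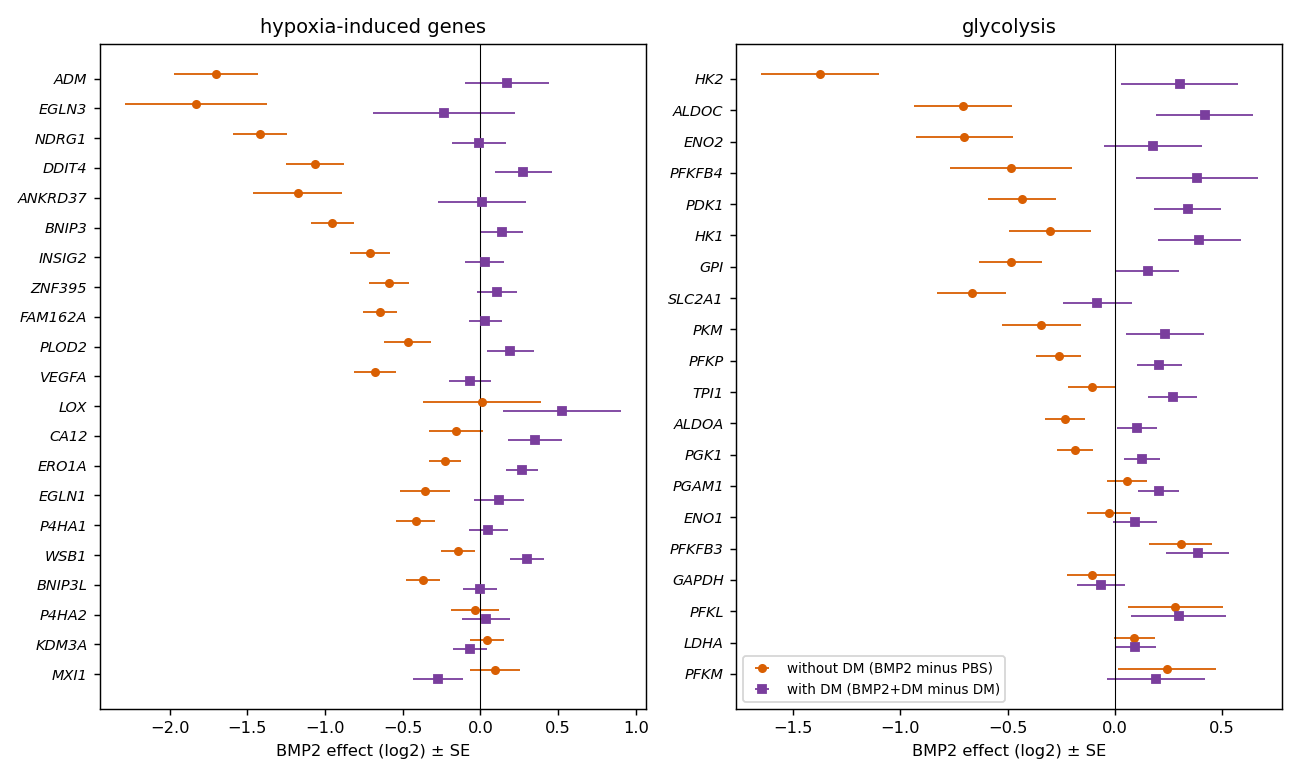
BMP2 effect (log2 ± SE, limma) without DM and with DM for the 21 hypoxia-induced genes and the 20 glycolysis genes measured, ordered by the interaction estimate. The points without DM lie left of those with DM in 19 of 21 and 19 of 20 genes.

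Over all genes tested, 0.118% passed the interaction by limma, and 4.5% were positive and 4.21% negative at an unadjusted p under 0.05. A count of 0 passing in lists of 11 to 26 genes therefore says little of their members. Of 11 TGF-beta target genes, 0 passed the interaction by limma, 2 estimates were positive, 4 were negative and 0 positive at an unadjusted p under 0.05, and the median was -0.60. That median was -0.38 without DM replicate 1, -0.35 without DM replicate 3 and -0.197 with probe sets averaged per gene, and 1 member was called without BMP2 replicate 2 or DM replicate 3. TGFBI, a secreted matrix protein, lay just outside the threshold, with signals of 20671, 22675 and 23755 with PBS, 43339, 40039.7 and 42936 with BMP2, 9207, 10424 and 8864 with DM, and 10431, 12064 and 11705 with both. Its 4 groups did not overlap, BMP2 raised it by 0.91 ± 0.09 without DM, the estimate with DM was 0.26 (0.08 to 0.45), and the interaction was -0.65 ± 0.12 (adjusted p = 0.0524). SNAI2, the transcription factor SLUG, was also just outside (-0.91 ± 0.18, adjusted p = 0.0537). Of 14 cholesterol synthesis genes, 0 passed, 7 were negative and 0 positive at an unadjusted p under 0.05, and the median was -0.28. IDI1, the isomerase that makes dimethylallyl diphosphate, had the largest size there (-0.74 ± 0.19, adjusted p = 0.218). Of 19 MAPK immediate early and feedback genes, 0 passed, 5 were positive and 1 negative at an unadjusted p under 0.05, and the median was 0.31. Among 26 genes of the ATF4 amino acid response 0 passed, the median was -0.01, and 13 were positive.

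**Figure D5:**
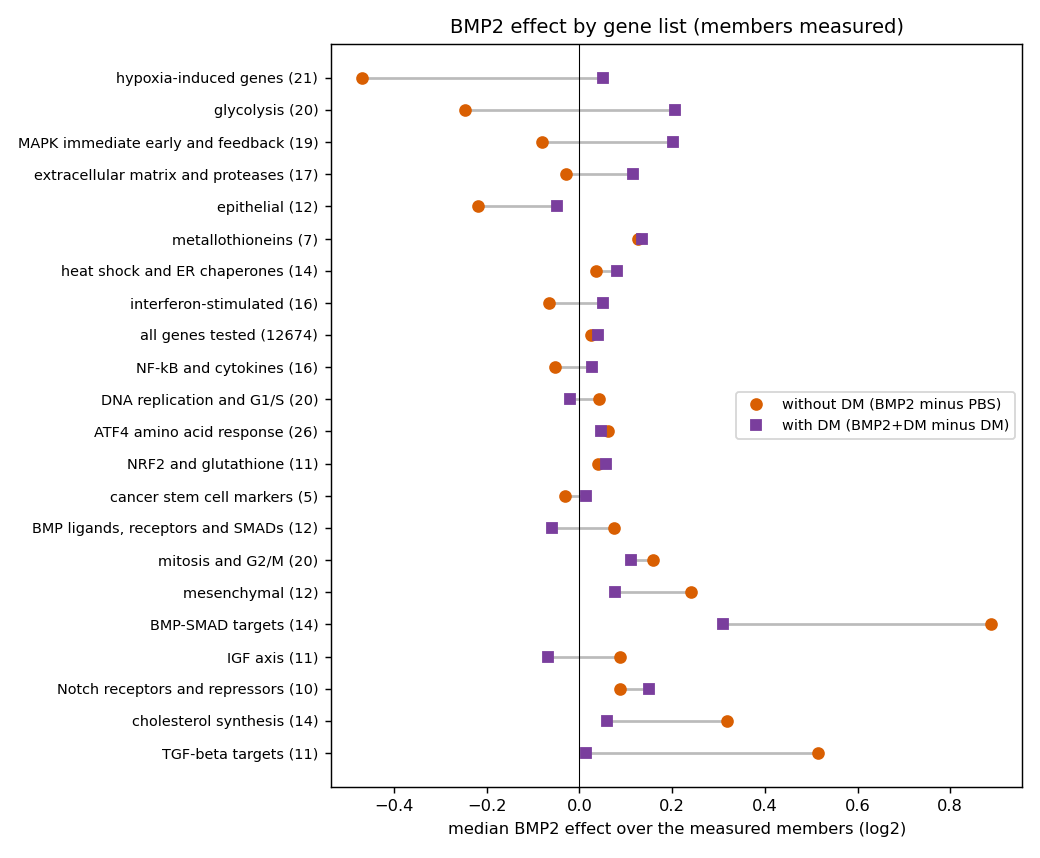
Median BMP2 effect (log2) over the measured members of each gene list, without DM (circles) and with DM (squares), with the number of members in brackets and all 12674 genes for reference. Hypoxia-induced and glycolysis genes shift to the right with DM, and TGF-beta targets, BMP-SMAD targets and cholesterol synthesis genes shift to the left.

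The 6 genes that BMP2 changed in the presence of DM were ID1, ID3 and ID4, given above, and MT1H, APLP2 and RESF1. MT1H, a metallothionein that binds zinc and copper and whose probes can also bind close relatives, had signals of 18498, 17374 and 20208 with PBS, 20857, 21804 and 18356 with BMP2, 7399, 7589 and 9731 with DM, and 12435, 13946 and 13615 with both. BMP2 raised it by 0.70 ± 0.11 with DM (limma adjusted p = 0.0114), the estimate without DM was 0.12, and the interaction was 0.58 ± 0.15 (adjusted p = 0.223). APLP2, a relative of the amyloid precursor protein, had signals of 7675, 8038 and 7510.5 with DM and of 10701, 11277 and 11685 with both, which did not overlap, and an interaction of 0.66 ± 0.13 (adjusted p = 0.0537). Its 8 probe sets above the filter differed, with BMP2 effects in the presence of DM from -0.04 to 0.54. Their interactions ranged from -0.09 to 0.72, 7 positive and 1 negative. RESF1 was lowered by BMP2 with DM (-0.63 ± 0.10, limma adjusted p = 0.0158), and the estimate without DM was -0.38 (limma adjusted p = 0.117). Its interaction of -0.25 (-0.54 to 0.04) did not pass (adjusted p = 0.635).

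Some of the largest BMP2 effects had interactions that did not pass. KRT9, a keratin, had signals of 357, 340.4 and 305 with PBS, 69.2, 128 and 30.9 with BMP2, 297, 124 and 123 with DM, and 273, 273 and 158 with both, an interaction of 2.82 ± 0.71 (adjusted p = 0.218, and 0.0443 without BMP2 replicate 2). CACNG4, an auxiliary subunit of calcium channels and AMPA receptors, ranged from 792 to 1201 with PBS, 189 to 364 with BMP2, 277 to 1056 with DM and 475 to 826 with both, and had an interaction of 1.84 ± 0.55 (adjusted p = 0.285). ITPKB, a kinase of inositol trisphosphate, was below the filter signal with PBS (13, 25.9 and 4.72), so that no fold is given, and between 111 and 173 on the other arrays. UCA1, a long noncoding RNA, was raised by BMP2 without DM, from 2338, 2247 and 1811 to 4940.4, 3555 and 5653, and had 531, 643 and 508 with DM against 989, 921 and 892 with both. Its BMP2 effects of 1.13 ± 0.16 and 0.74 ± 0.16 gave an interaction of -0.39 (-0.86 to 0.09, adjusted p = 0.652).

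The genes whose log2 signals over the 12 arrays were most like those of CXCR4 were FAM162A (Pearson r = 0.903), LCN2 (0.884), ERRFI1 (0.879), CSNK2A1 (0.855) and WDR82 (0.853). The 12 arrays share the 4 treatments, so these values describe likeness across groups and not within them. Their interactions were 0.68, 0.45, 0.71, 0.55 and 0.62. The sign is favoured by the choice of genes, which used the same 12 arrays and a gene high with PBS, so that it is a description with no test. When all 27306 probe sets above the filter were tested, with or without a single symbol, 6 passed. All 6 were among the 23284 with 1 symbol, of which 1770 had an unadjusted limma p under 0.05. Of the 1086 with several symbols and the 2936 without a listed gene, 0 passed (82 and 170 at that p). With only 6 calls in 23284, a count of 0 in these smaller sets says little of them.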

How the data were processed

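RNA from 12 SK-OV-3 dishes was hybridised to 1 expression array each, in 4 groups of 3. The table deposited by the authors gives a linear signal intensity for each probe set and array, computed with MAS5, per the submitters' processing notes (version not stated). All arrays had a common trimmed mean, so no further scaling was applied, and detection calls and scan dates were not analysed here. Of 54613 probe sets, 41091 had 1 gene symbol in the platform's probe table, 1801 had several and 11721 were not listed. A floor of 1 was set (396 values lay below it) before taking log2, and the probe set with the highest mean log2 signal stood for its gene.

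One limma model (limma 3.58.1, R 4.3.3; lmFit, contrasts.fit, eBayes with an intensity trend; 8 residual and 9.24 prior degrees of freedom) gave a mean per group and all contrasts. Tests were two-sided with Benjamini-Hochberg adjustment over 12674 genes, and an adjusted p under 0.05 made a call. An adjusted p beside an interaction is limma's. A permutation of 3 arrays against 3 cannot go below a two-sided p of 0.1. Intervals cover 95%, and the 3 arrays per group limit the precision. The code was tested on simulated data.

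Genes named were 5 given with the comparison, the called genes with the largest estimates, called members of gene lists, direct BMP targets, the largest effects by class, and those most like CXCR4. The members and lists were chosen with earlier results of these data known. Same-numbered arrays of different groups did not deviate together (18 correlations from -0.03 to 0.06), so replicate numbers were not used as pairs. Promoters came from RefSeq tables of GRCh38.p14. Alternatives were median centring, quantile normalization, an offset of 32 before log2, the brightest 30% of probe sets, no filter, every probe set on its own, probe sets averaged per gene, no trend, robust variance, array weights, a replicate block, other class boundaries and the omission of each array. The average per gene took in all its probe sets with a single symbol, also those below the filter. The medians of lists under these settings and the test of probe sets without a single symbol were added after the data were seen.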

Additional observations from a re-analysis of the deposited data

Results flagged for a closer look

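A test of the difference itself, the interaction in limma over all 12 arrays, set 15 genes apart as responding to BMP2 differently with and without DM. The values below are log2 differences, taken as the effect of BMP2 in the presence of DM minus that in its absence. Among genes that BMP2 lowered in the absence of DM, the difference was 3.78 for DECR2, 3.30 for CXCR4, 1.41 for NDRG1, 1.25 for STC1, 1.23 for IGFBP3, 1.21 for PDZK1IP1, 1.09 for PHLDA2, 1.09 for BNIP3, 1.05 for RNASET2 and 0.81 for CCL20. It was 1.22 for ID4 and 1.18 for ID1, which BMP2 raised in both settings, and -1.01 for CD24, which BMP2 raised without DM. ARF5 (0.98) and SF3B1 (-0.55) had BMP2 effects of opposite estimated sign, of which neither passed. DECR2, STC1 and CD24 each kept their call in 11 of the 12 omissions of an array, CXCR4 in 9 and IGFBP3 in 7, and the other 10 genes in 5 or fewer. The calls of STC1, CD24 and IGFBP3 were lost with median centring (adjusted p = 0.0573 for each, limma) and without an intensity trend (0.214, 0.117 and 0.342), that of CXCR4 without a trend (0.214), and that of CD24 with probe sets averaged per gene (-0.68, adjusted p = 0.417). NDRG1 was not called in any of these 3 settings (adjusted p = 0.0809, 0.354 and 0.116) or with every probe set tested (0.0605).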

How the results depend on the processing

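The number of interaction genes (15) was 21 with quantile normalization or an offset of 32, 16 without the filter or with robust variance, 26 over the brightest 30% of probe sets, 31 with array weights, 8 with a replicate block, 5 with every probe set, 4 with probe sets averaged per gene, 2 with median centring and 1 without an intensity trend. It ranged from 0 to 42 over the omissions of 1 array. The number changed by BMP2 without DM (80) was 50 with median centring, 35 with the probe set mean and 12 without a trend, and 36 to 101 over the omissions. With DM (6) it was 12 with every probe set, 2 without a trend and 14 with array weights, and 3 to 21 over the omissions. The removed share of the interaction genes (53.3%) was 0% without a trend, where only DECR2 was called, and 33.3% to 85.7% over the omissions that left any call. For the genes changed by BMP2 without DM the removed share stayed between 71.4% and 91.3% under every alternative but the class boundaries.

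Signs reversed as follows. As differences of mean signal the interactions were -7813 for ID1, -5756 for ID4, -4477 for ID3 and -1625 for ID2. With the probe set mean they were -0.0755 for RNASET2, 0.0906 for SMAD9 and -0.70 for ID2, and the medians 0.19 for BMP-SMAD targets and 0.0484 for cholesterol synthesis. That mean also takes in probe sets below the filter. The ID2 estimate (0.02) was -0.00705 with quantile normalization, -0.0674 with the offset, -0.15 with array weights, and -0.41 to 0.32 over the omissions (without BMP2 replicate 2 -0.41, DM replicates 2 and 3 -0.03 and -0.12, BMP2+DM replicates 1 and 2 -0.01 and -0.05). The causes were not tested. Probe sets near the filter signal of 69.8 carry the least precise values, as in DECR2, KRT9 and ITPKB.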
